A study of Canis lupus familiaris with 10 samples.

Results

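The genes described here are the chemokines and chemokine receptors of a canine immune panel, measured in canine cutaneous histiocytoma (CCH), a canine skin tumour of Langerhans cell origin that often regresses by itself as lymphocytes move in. They were chosen by symbol: each panel gene whose name begins with CCL, CCR, CXCL, CXCR, CX3C, XCL or XCR belongs, apart from CXCR3 and its interferon-induced ligands (CXCL10, CXCL11 and CXCR3 on this panel). The rule gave 44 of the 800 panel genes, of which 27 were ligands and 17 were receptors. Of the 44, 43 matched a canine RefSeq symbol (assembly UU_Cfam_GSD_1.0). The study compared the stages with hybridisation counts of the nCounter Canine IO Panel, in which a barcoded probe pair binds each transcript directly and the barcodes are counted without amplification. There were 5 early CCH (histological group 1) and 5 late CCH (histological group 3, labelled lymphocyte enriched), each from formalin-fixed, paraffin-embedded archive tissue. The tumours had been excised from privately owned pet dogs and trimmed of adjacent tissue, and the labels name no treatment or genotype. Dogs with early CCH were 0.5 to 5 years old, with 1 age not stated, and dogs with late CCH were 1.5 to 9 years old.

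Chemokines are small secreted proteins that bind G protein-coupled receptors on leukocytes and direct where those cells go. Some are made constantly to lay out lymphoid organs, others are induced in inflamed tissue, and each receptor marks the cell types able to follow its ligands. In skin, Langerhans cells carry CCR6 while resident in the epidermis and gain CCR7 when they leave for the lymph node, and T cells reach the tissue through receptors such as CCR4 and CXCR6.

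Values are normalized counts, meaning barcode counts that the authors scaled to positive control and housekeeping probes, and no level of one probe was set against that of another. The early samples held 484696 to 823763 barcode counts, as recovered from the steps in the normalized values, and the late samples 945399 to 1253083, so that the stages did not overlap in depth. Background was set in each sample at the mean plus 2 SD of its 8 negative control probes, and came to 21.8 to 38.2 normalized counts in early CCH and 19.2 to 26.9 in late CCH. DV200, the share of RNA fragments above the length used to grade archived RNA, was 64.5 to 71.2% in early CCH and 71.2 to 75.8% in late CCH by the labels, although the study's own table lists another value for late 5. By the study's sample table the early tumours shared 1 cartridge and the late tumours another, and the ratio of the most to the next most concentrated positive control was 2.09 to 2.17 in early and 2.72 to 2.84 in late samples. The stages also shared no RNA extraction batch, and the late blocks had been stored longer. Cartridge, extraction batch, storage and stage therefore cannot be told apart.

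The labels were checked against marker genes. The 9 T cell markers on the panel summed to 556 normalized counts in early 1, 2822 in early 2, 10233 in early 3, 8012 in early 4 and 1273 in early 5, against 15656 to 25073 in late CCH, and 9 of 9 were higher in late CCH after Benjamini-Hochberg (BH) adjustment. Early 3 and early 4 thus held more T cell RNA than the other early tumours, though less than any late tumour. Among Langerhans and dendritic cell markers, CD1B was never above background and CD207 (langerin) averaged 27.4 ± 8.06 (SD, n = 5) normalized counts in early CCH and 16.1 ± 5.64 (SD, n = 5) in late CCH, around the background range. FLT3, a growth factor receptor of dendritic cells, was higher in early CCH, by 2.49 on the log2 scale (Benjamini-Yekutieli (BY) adjusted p = 0.0102, limma). CD83, a marker of mature dendritic cells, was higher in late CCH (log2 fold change -1.30, BH adjusted p = 0.0109), and the other 4 tested genes of that list did not pass BH. In bulk tissue, fewer cells of a type and less RNA per cell cannot be told apart.

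Chemokine family genes that differed between stages were mostly higher in late CCH. Of the 41 members with a mean of at least 20 normalized counts, 3 passed the stricter threshold (a difference of 2-fold or more with a BY adjusted p no higher than 0.05), and all 3, the ligands CCL4 and CXCL16 and the receptor CXCR4, were higher in late CCH. That is 7.32% of tested members, beside 9.2% (70) of the 761 tested panel genes in that direction. The panel total in both directions, 85 genes, ranged from 39 to 98 with 1 sample left out. No member passed in the early direction, beside 1.97% of the panel. At the looser threshold (a BH adjusted p no higher than 0.05, with no fold limit), 15 members (36.6%) were higher in late CCH and 2 (4.88%) in early CCH, beside 27.3% and 8.41% of the panel. In 5 members, CCL3, CCL4, CCL21, CXCL16 and CXCR4, every late sample exceeded every early sample (12.2%, beside 19.2% of the panel), and in none did every early sample exceed every late one (beside 5.39%). With 41 tested members, each gap between a member share and the panel share rests on few genes. The shares were not tested against each other, so none is read as a difference of the members from the panel. The members' median log2 fold change, early over late, was -0.75, beside -0.18 over all tested genes, with -0.82 for the 25 tested ligands and -0.74 for the 16 tested receptors.

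These counts moved with the scaling and with RNA quality. Scaling each sample to the geometric mean of the panel turned the panel median to 0.21 and the split of members to 10 higher in late and 6 in early CCH, and quantile normalization gave a panel median of 0.21 and a split of 7 and 3. The panel's own split turned from 208 late and 64 early genes to 151 and 193 under geometric mean scaling and to 144 and 180 under quantile normalization. Geometric mean scaling lost the BH calls of CCL2, CCL8, CCR7, CXCL12 and XCR1 and gained CCL1, CCL24, CCL27 and CXCR2, higher in early CCH. Quantile normalization lost the same 5 genes and CCL7, CCL19 and CCL21, and gained CCL14, higher in early CCH. None of the 17 members past BH changed direction under any setting. With DV200 as a covariate no member passed the stricter threshold and only CCR4 passed BH (adjusted p = 0.0411), and over the whole panel 0 genes passed the stricter threshold and 45 passed BH. That covariate shrank the log2 fold change by more than 1.5 times in CXCR4 (to -1.64), CXCR6 (to -1.65), CCL19 (to -0.92), CCL2 and CCL8 (both to -0.62) and CCR7 (to -0.59). Among the 17 members past BH it enlarged the log2 fold change in CCR4 (to -1.73), CCR6 (to 2.37), CXCL12 (to -1.33), CCL21 (to -1.99) and CCL7 (to -1.50). DV200 moved with stage, and its part in the differences was not tested.

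**Figure D1:**
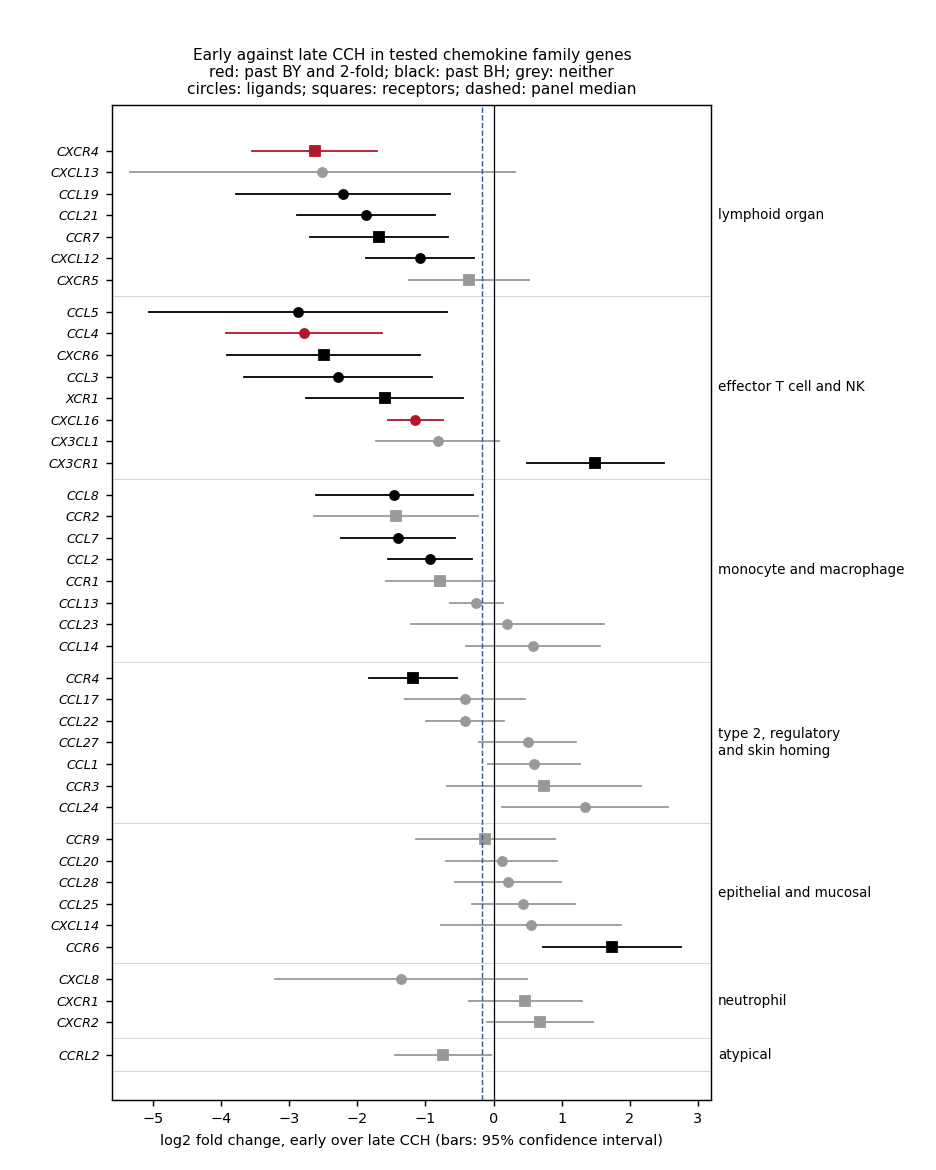
Log2 fold change, early over late CCH, of 40 of the 41 tested chemokine family genes by role (limma; bars are 95% confidence intervals; circles are ligands and squares receptors). Red marks the 3 genes past BY and 2-fold, black the other 14 past BH; most points in the lymphoid organ and effector groups lie left of the dashed panel median of -0.18, and the 6 epithelial and mucosal points lie right of it.

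The lymphoid organ group holds the chemokines that lay out lymph nodes and follicles together with their receptors. Of its 7 tested members, 5 were higher in late CCH past BH, beside 27.3% of the panel (group median -1.87). Shares of the small role groups and gene lists were not tested against the panel. CXCR4, the receptor for CXCL12 carried by most leukocytes, read 101 normalized counts in early 1, 144 in early 2, 398 in early 3, 241 in early 4 and 75.8 in early 5, and 678, 1271, 1045, 1001 and 1093 in late 1 to late 5. Each late tumour lay above each early one, and among early tumours early 3 and early 4 were the highest. The log2 fold change was -2.63 (SE 0.42, BY adjusted p = 0.0141), and CXCR4 passed the stricter threshold with any single sample left out and under both other scalings. Its ligand CXCL12, made by stromal and endothelial cells, ranged from 262 to 828 normalized counts in early and from 599 to 1905 in late CCH (log2 fold change -1.08, BH adjusted p = 0.0376). CXCL12 stayed past BH only when the sample left out was early 2, early 5 or late 5.

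CCR7, the receptor that brings mature dendritic cells and naive T cells to lymph nodes, and both of its ligands were higher in late CCH under the authors' scaling. The CCR7 call was lost with geometric mean scaling (BH adjusted p = 0.0501) and quantile normalization (0.0950), and the latter also lost CCL19 (0.0710) and CCL21 (0.0563). CCR7 read 39.8 to 186 normalized counts in early and 171 to 617 in late CCH (log2 fold change -1.68, BH adjusted p = 0.0170). The ranges touched only where early 1 exceeded late 5. CCL21, the CCR7 ligand of lymphatic vessels, read 82.5, 52.6, 27.5, 142 and 47.4 in early 1 to early 5 and 145, 378, 154, 366 and 184 in late 1 to late 5 (log2 fold change -1.87, BH adjusted p = 0.0113). The gap between the stages was narrow, with early 4 just under late 1. CCL19, the other CCR7 ligand, read 50.8, 71.2, 321, 563 and 43.6 in early CCH and 280, 708, 653, 814 and 606 in late CCH (log2 fold change -2.21, BH adjusted p = 0.0338). Here early 3 and early 4 reached into the late range while the other early tumours stayed at 71.2 or below, and the call held only without early 3, early 4 or late 1.

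CXCL13, the chemokine of B cell follicles, varied widely within each stage. It read 47.6, 2853, 73.4, 77.4 and 402 normalized counts in early 1 to early 5 and 144, 2137, 1799, 6767 and 533 in late 1 to late 5. One early tumour, early 2, stood at late levels, and one late tumour, late 1, at early levels. The log2 fold change was -2.52 (95% confidence interval -5.35 to 0.31, BH adjusted p = 0.151). Without early 2 it was -3.48 with a BH adjusted p of 0.0320. CXCL13 passed BH in only that 1 of the 10 fits with a sample left out, so it is not counted as a call. Its receptor CXCR5, found on B cells and follicular helper T cells, read 70.9 to 112 in early and 74.5 to 353 in late CCH (log2 fold change -0.36, BH adjusted p = 0.508), with late 3 alone above 129. Late 3 was also the tumour with the highest sum of the 6 B cell markers, 7049 normalized counts against 1375 to 2808 in the other late and 1063 to 2007 in early tumours; that sum's part in the CXCR5 value was not tested.

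The effector T cell and natural killer (NK) group was also mostly higher in late CCH (group median -1.60). Of 9 tested members, 6 passed BH in that direction and 1 in the other, beside 27.3% and 8.41% of the panel. CCL3, CCL4 and CCL5 are inflammatory ligands that activated T cells, NK cells and macrophages release. CCL4 read 80.4, 285, 751, 377 and 140 normalized counts in early 1 to early 5 and 1446, 1643, 1595, 1613 and 2364 in late 1 to late 5. The stages were well apart, and late 5 stood above an otherwise tight late group. The log2 fold change was -2.78 (SE 0.51, BY adjusted p = 0.0241). The stricter call was lost without early 5, late 1, late 2, late 4 or late 5, while the BH call held with any sample left out.

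CCL3 read 63.5, 597, 1026, 407 and 301 normalized counts in early 1 to early 5 and 1539, 1731, 1100, 1816 and 2494 in late 1 to late 5 (log2 fold change -2.28, BH adjusted p = 0.0176). Early 3 came close to late 3, yet the groups did not overlap. CCL5 read 470, 6961, 24879, 28383 and 4068 in early CCH and 89603, 39691, 26193, 39599 and 53867 in late CCH (log2 fold change -2.87, SE 0.98, BH adjusted p = 0.0437). Its early values covered a wide range, from early 1 far below all others to early 4 above late 3. The CCL5 call was lost without early 2, early 5 or any one of the late samples.

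CXCL16, a ligand that macrophages and dendritic cells display on their surface or shed, had a small difference with little spread. It read 910, 1143, 1182, 1520 and 788 normalized counts in early 1 to early 5 and 2504, 2391, 2126, 2689 and 2319 in late 1 to late 5. No early tumour reached the late range, and the log2 fold change was -1.15 (SE 0.18, BY adjusted p = 0.0141). It passed the stricter threshold with any single sample left out, but not after geometric mean scaling (BY adjusted p = 0.0630) or quantile normalization (BY adjusted p = 0.0854). Its receptor CXCR6, carried by effector and tissue-resident T cells, read 41.3, 109, 485, 344 and 79.6 in early CCH and 1079, 1237, 453, 988 and 596 in late CCH. Only early 3 overlapped the late range, at its lower end in late 3, and the log2 fold change was -2.50 (BH adjusted p = 0.0136).

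XCR1, the receptor of cross-presenting dendritic cells, ranged from 18.0 to 98.8 normalized counts in early and from 63.7 to 290 in late CCH (log2 fold change -1.60, BH adjusted p = 0.0359). The call was lost without early 1, early 2, early 5, late 1, late 3 or late 4. CX3CR1, the fractalkine receptor of monocytes, some dendritic cells and cytotoxic lymphocytes, ran the other way. It read 49.7, 62.8, 27.5, 156 and 92.9 in early 1 to early 5 and 18.6, 46.5, 16.2, 17.6 and 24.8 in late 1 to late 5. Late CCH lay at or near background, with 2 of 5 late samples above it against 4 of 5 early ones, and early 3 fell among the late values. The log2 fold change was 1.49 (BH adjusted p = 0.0275), was lost without early 5, late 1, late 3 or late 4, and was 0.81 with a BH adjusted p of 0.0885 once all values were raised to a common background floor. Its ligand CX3CL1 read 27.1 to 67.9 in early and 31.0 to 106 in late CCH (log2 fold change -0.82, BH adjusted p = 0.144).

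Markers of lymphocytes moved with these 2 groups. Beside the T cell sums given above, the 7 cytotoxic lymphocyte markers summed to 957 to 7057 normalized counts in early and 8742 to 23906 in late CCH, and 6 of 7 were higher in late CCH past BH; for B cell markers it was 4 of 6. No defining marker of these lists was at 0, although CD79B was never above background in early CCH. Early 3 and early 4 were the highest early tumours for 9 of 9 T cell markers and for 7 of the 15 members higher in late CCH (46.7%: CCL4, CCL5, CCL19, CXCL16, CXCR4, CXCR6 and XCR1), beside 24.7% of all tested genes. Vessel and stromal markers moved in the same direction in part. Of 4 endothelial markers, CDH5 (log2 fold change -0.98) and CD34 (-0.87) were higher in late CCH past BH. With geometric mean scaling CDH5 and CD34 were at -0.60 and -0.48, and with quantile normalization at -0.81 and -0.33. The endothelial list summed to 1236 to 1955 normalized counts in early and 1197 to 2155 in late CCH. Of 4 fibroblast and stromal markers, THY1 was higher in late CCH (-1.58, BY adjusted p = 0.00918), and their list summed to 4417 to 36926 in early and 11639 to 32323 in late CCH. The part of lymphocyte, vessel and stromal content in the member values was not tested.

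**Figure D2:**
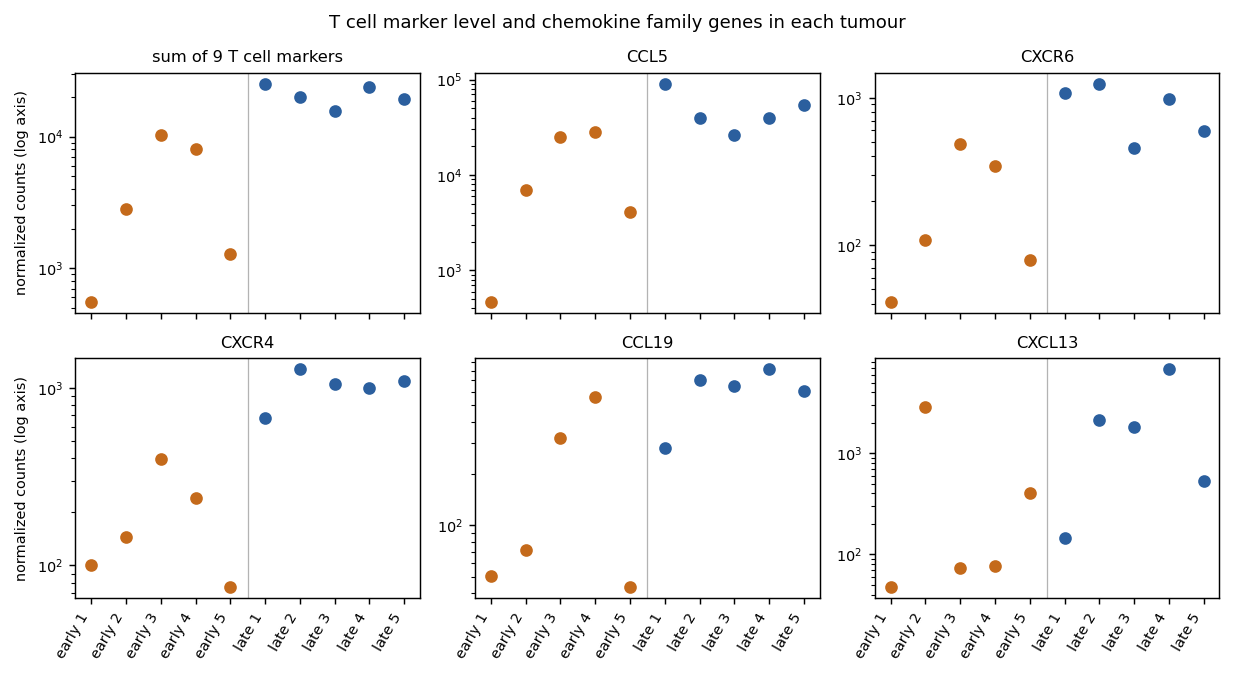
Normalized counts (log axis) in each tumour of the summed 9 T cell markers and of CCL5, CXCR6, CXCR4, CCL19 and CXCL13; orange is early and blue late CCH, 1 point per tumour. In the first 5 plots early 3 and early 4 lie above the other early tumours, whereas CXCL13 is highest among early tumours in early 2, at 2853.

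**Figure D3:**
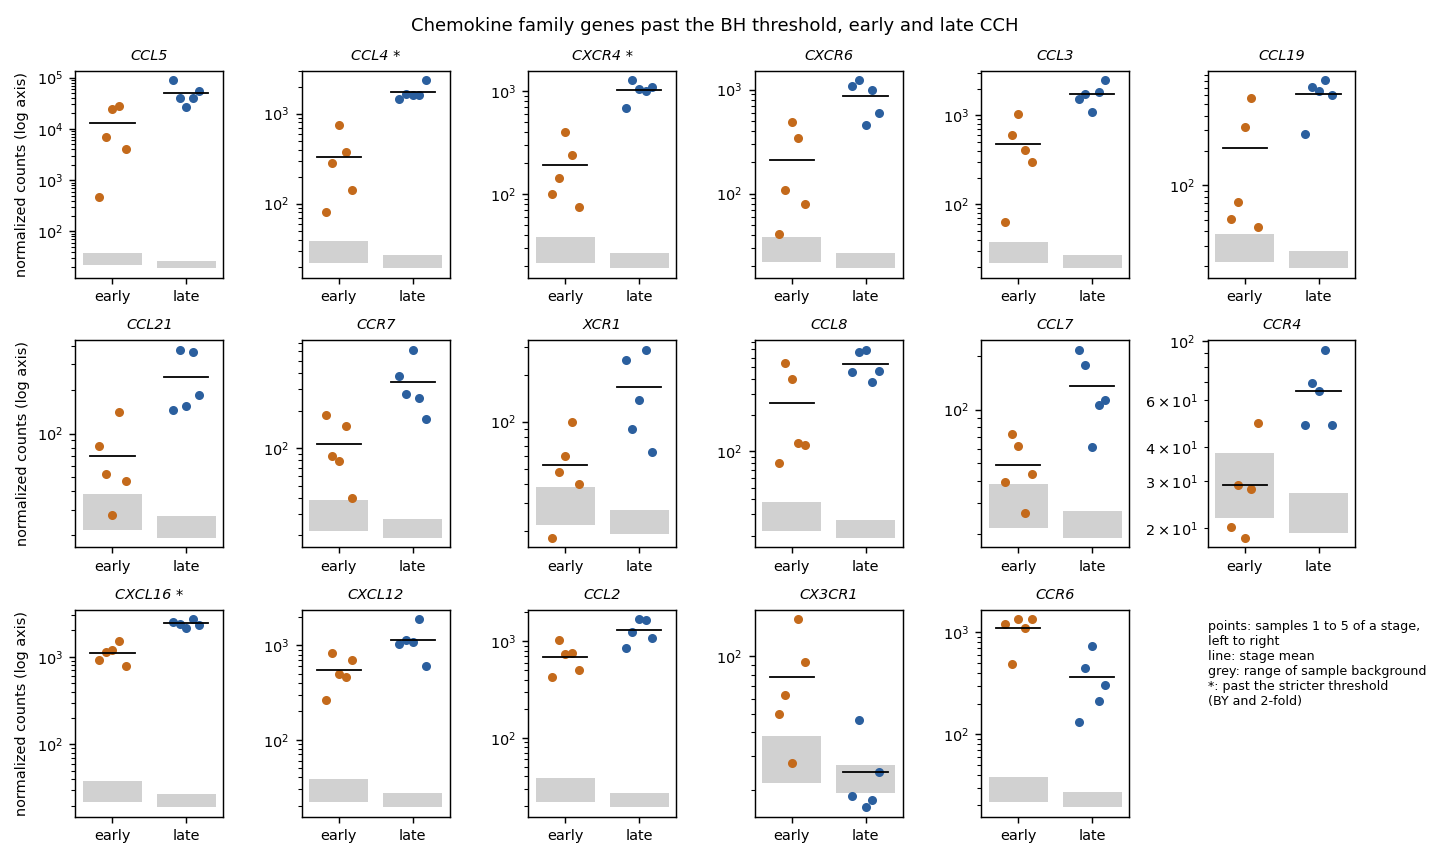
Normalized counts (log axis, scaled for each gene) of the 17 members past BH, with samples 1 to 5 of each stage from left to right, the stage mean as a line and the range of sample backgrounds in grey. CCL4, CXCL16 and CXCR4 (asterisks) show no overlap between stages; CCR6 and CX3CR1 are the members with the higher mean in early CCH.

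In the monocyte and macrophage group, 3 of 8 tested members were higher in late CCH past BH, beside 27.3% of the panel (group median -0.86). All 3 were ligands of CCR2, the receptor that draws monocytes from the blood. The calls of CCL2 and CCL8 were lost under both other scalings, and that of CCL7 under quantile normalization. CCL2 ranged from 428 to 1036 normalized counts in early and from 846 to 1701 in late CCH (log2 fold change -0.93, BH adjusted p = 0.0266). CCL7 ranged from 26.4 to 72.9 in early and from 61.5 to 217 in late CCH (log2 fold change -1.40, BH adjusted p = 0.0170). CCL8 ranged from 80.4 to 544 in early and from 377 to 698 in late CCH and lay at the edge of the threshold (log2 fold change -1.46, BH adjusted p = 0.04998). In each of the 3 ligands the stage ranges overlapped: for CCL2 and CCL8 early 2 was the highest early tumour, and for CCL7 early 2 and early 3 exceeded late 3. The CCL2 call was lost without early 1, early 5, late 3 or late 4, and CCL8 passed only when early 2 or early 3 was left out.

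CCR2 itself read 31.7, 62.8, 213, 216 and 212 normalized counts in early 1 to early 5 and 404, 306, 299, 412 and 191 in late 1 to late 5. Only late 5 fell among the early values, and the difference did not pass (log2 fold change -1.43, BH adjusted p = 0.0638). CCR1, a receptor of monocytes and neutrophils, read 353 to 1510 in early and 1029 to 1846 in late CCH (log2 fold change -0.78, BH adjusted p = 0.116). CCL13, another monocyte ligand, was the steadiest member of the group at 144 to 195 in early and 171 to 263 in late CCH (log2 fold change -0.25, BH adjusted p = 0.283), and its sign turned under both other scalings. CCL23, a CCR1 ligand, read 6083, 8859, 1467, 644 and 2134 in early CCH and 1390 to 3193 in late CCH, so that early 1 and early 2 stood far above the rest while early 4 was the lowest of all tumours. CCL14 showed a similar lead of early 2, at 363 against 75.8 to 210 in the other early and 64.8 to 178 in late tumours. Of the 7 macrophage markers, 2 were higher in late CCH past BH, and their sum ranged from 2911 to 7523 in early and from 4163 to 8026 in late CCH; their part in these values was not tested.

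The type 2, regulatory T cell and skin homing group had a median of 0.50. In it 1 of 7 tested members passed BH in the late direction, beside 27.3% of the panel. This was CCR4, the receptor of T helper 2, regulatory and skin-homing T cells, which read 20.1, 28.8, 18.4, 28.0 and 49.3 normalized counts in early CCH and 48.4, 69.7, 64.8, 92.9 and 48.6 in late CCH. Early values lay around the background, above it in 1 of 5 samples, and that sample, early 5, matched the lowest late ones (log2 fold change -1.18, BH adjusted p = 0.0122). With all values raised to the common background floor it was -0.63 (BH adjusted p = 0.0229). The CCR4 ligands CCL17 and CCL22 had log2 fold changes of -0.42 each and did not pass (BH adjusted p = 0.431 and 0.226). CCL22 was above background in 0 of 5 early and 5 of 5 late samples, at 16.9 to 26.4 and 19.4 to 42.2 normalized counts. CCL24, an eosinophil chemoattractant acting through CCR3, read 110, 102, 18.4, 31.3 and 129 in early CCH and 13.0 to 42.2 in late CCH. High values in early 1, early 2 and early 5 gave a log2 fold change of 1.34 that did not pass (BH adjusted p = 0.0822). CCR3 was listed at 181 in early 2 and at 12.7 to 53.1 in the other 9 tumours. CCL26 and CCR10 were too low to test.

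In the epithelial and mucosal group, CCR6 was the 1 member of 6 tested that passed BH, in the early direction, beside 8.41% of the panel (group median 0.32). This receptor of Langerhans cells, B cells and T helper 17 cells read 1218, 490, 1349, 1094 and 1351 normalized counts in early 1 to early 5 and 131, 449, 734, 215 and 304 in late 1 to late 5. Early 2 was the one early tumour inside the late range, and late 3 the one late tumour above it. The log2 fold change was 1.74 (SE 0.46, BH adjusted p = 0.0153), passed BH with any sample left out, and reached the stricter threshold under quantile normalization. Its ligand CCL20, induced in inflamed epithelium, read 19.0 to 80.8 in early and 32.5 to 57.5 in late CCH (log2 fold change 0.12, 95% confidence interval -0.70 to 0.94). CXCL14, a chemokine of resting epithelium, read 1379 to 9158 in early and 767 to 5235 in late CCH (log2 fold change 0.55, BH adjusted p = 0.501). None of the 5 keratinocyte and epithelial markers passed BH, and their sum ranged from 788 to 5808 in early and from 694 to 3922 in late CCH.

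Neither the neutrophil group nor CCRL2 held a call. CXCL8, the main neutrophil attractant, read 141, 1937, 55.1, 158 and 123 normalized counts in early 1 to early 5 and 324, 834, 236, 632 and 832 in late 1 to late 5. Apart from early 2 every early tumour lay below every late tumour. With early 2 the log2 fold change was -1.36 (BH adjusted p = 0.230), and without it -2.18 (BH adjusted p = 0.00836). CXCL8 passed BH in only that 1 of the 10 fits with a sample left out, so it is not counted as a call. The CXCL8 receptors CXCR1 and CXCR2 had log2 fold changes of 0.47 and 0.68 (BH adjusted p = 0.351 and 0.154). The summed neutrophil markers, which include S100A8 and S100A9, had another order of tumours: they ranged from 1425 to 37784 in early and from 1657 to 36400 in late CCH, with 37784 in early 1 and 28555 in early 2. CCRL2, a receptor that binds the attractant chemerin without signalling, read 49.7 to 131 in early and 98.3 to 222 in late CCH (log2 fold change -0.75, BH adjusted p = 0.0934).

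Of the 24 tested members that did not pass BH, 12 had a higher mean log2 value in late and 12 in early CCH, and 12 were above background in all 10 samples. CCL16, CCL26 and CCR10 fell under the filter and were above background in 0, 0 and 1 samples. CCL27, a skin-homing ligand of CCR10, was above background in 2 samples only, so that its values of 10.2 to 35.6 hold little information on stage. The members also varied more within stages than the panel did. The SD of a member's log2 values had a median of 0.86 in early and 0.58 in late CCH, beside 0.45 and 0.38 over all tested genes, and no test was made of that difference. Early 1 was the lowest early tumour for 8 of the 15 members higher in late CCH, and for 40.9% of all tested genes.

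**Figure D4:**
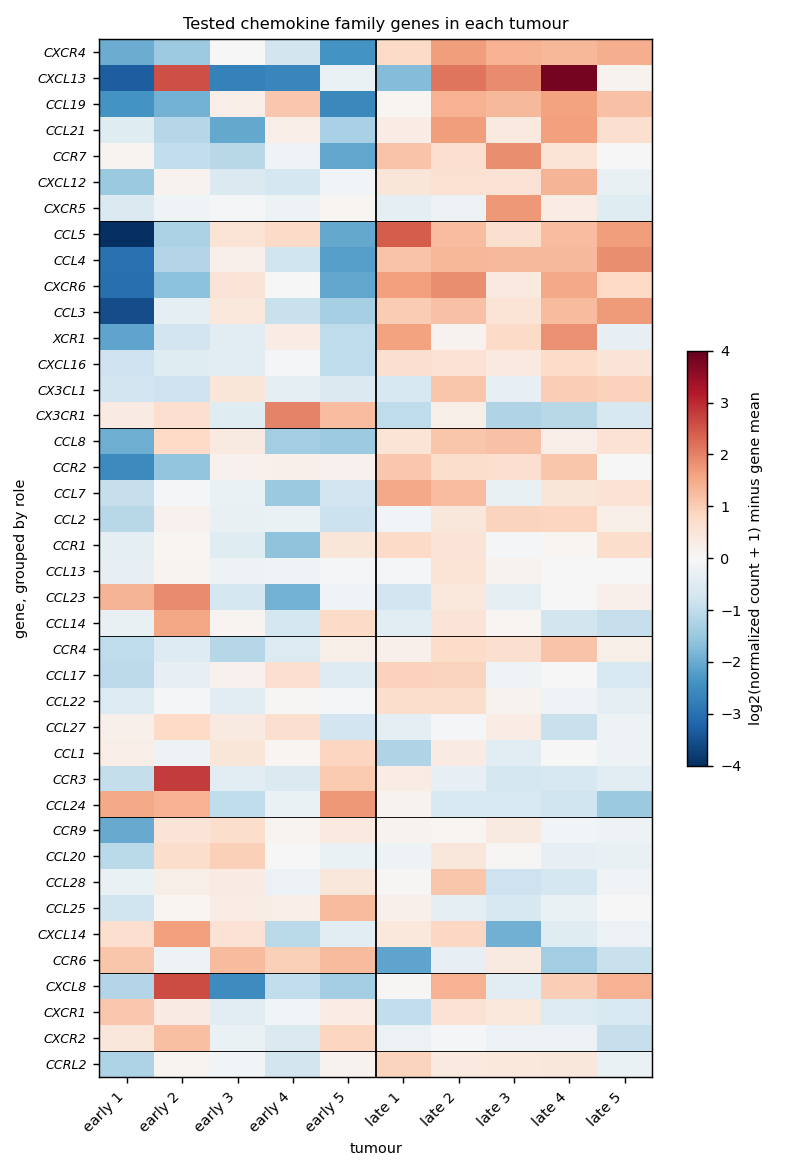
Log2(normalized count + 1) minus the gene's mean over 10 tumours, for 40 of the 41 tested members grouped by role (lines) and ordered within a role by fold change; the vertical line parts early from late CCH. Blue cells gather in early 1 and early 5 of the first 2 groups, and early 2 shows single strong red cells for CXCL13, CXCL8, CCR3 and CCL23.

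Ligands and receptors were set side by side in 17 pairs with both partners tested. In 4 pairs, CCL19 and CCL21 with CCR7, CXCL12 with CXCR4 and CXCL16 with CXCR6, both partners were higher in late CCH past BH. In 4 pairs only the ligand passed, each time higher in late CCH: CCL5 with CCR1, and CCL2, CCL7 and CCL8 with CCR2. In 4 pairs only the receptor passed, with CCR4 higher in late CCH beside CCL17 and CCL22, and CCR6 and CX3CR1 higher in early CCH beside CCL20 and CX3CL1. Neither passed in the other 5. Whether a ligand and its receptor differed from each other was not tested, and pairs share partners.

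**Figure D5:**
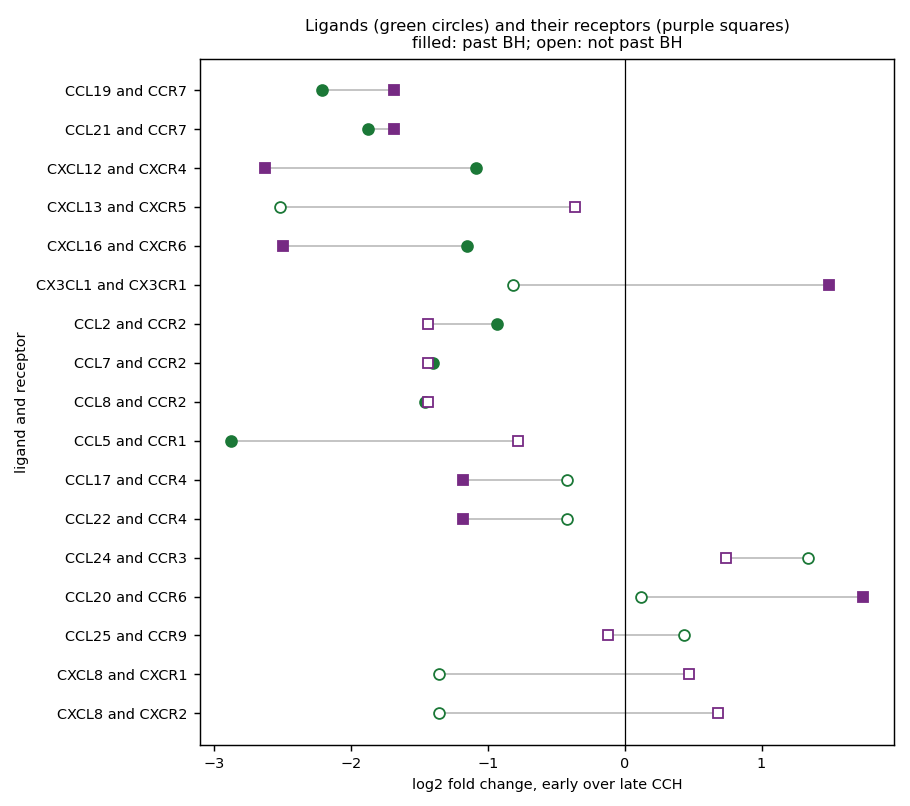
Log2 fold changes, early over late CCH, of the ligand (green circle) and the receptor (purple square) in 17 pairs; filled symbols passed BH and open ones did not. Both symbols are filled left of zero in 4 pairs, and for CX3CL1 with CX3CR1 the ligand is at -0.82 while the receptor is at 1.49.

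Other genes of the pathway were counted by list. Past BH, 27.3% of the panel was higher in late and 8.41% in early CCH. Of 16 tested genes of signalling and adhesion downstream of chemokine receptors, 10 were higher in late and 1 in early CCH past BH. Those past the stricter threshold in the late direction included ITGAL, the integrin chain that lets lymphocytes stop on vessel walls (log2 fold change -3.04), its ligand ICAM1 (-1.25), the kinase JAK3 (-1.38) and the leukocyte PI3-kinase subunit PIK3CD (-1.23). PIK3CG, the PI3-kinase subunit that G protein-coupled receptors activate, was higher in early CCH, with 2073 ± 366 (SD, n = 5) normalized counts against 895 ± 118 (SD, n = 5) in late CCH (log2 fold change 1.20, BY adjusted p = 0.00842). These 5 genes kept their direction under both other scalings. With geometric mean scaling and quantile normalization, ICAM1 (-0.86 and -0.88), JAK3 (-0.993 and -0.9999) and PIK3CD (-0.84 and -0.83) fell under the 2-fold limit. Of 4 tested attractant ligands and receptors with other names, CMKLR1, the chemerin receptor, and MIF, a cytokine that binds CXCR4, were higher in late CCH past BH (-1.09 and -1.14). With geometric mean scaling CMKLR1 and MIF were at -0.70 and -0.75, and with quantile normalization at -0.44 and -0.73. Of 11 tested cytokines and factors that induce chemokines, 1 passed BH, the lymphotoxin chain LTB (-1.62, higher in late CCH).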

How the data were processed

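The 5 early and 5 late CCH were hybridised to the nCounter Canine IO Panel. The authors counted barcodes and scaled them in nSolver 4.0 to positive control and housekeeping probes, and the deposited values are a linear signal of normalized counts for 800 genes. Tables of the authors' own comparison were not used. The 14 control probe rows stayed out of the tests. In each sample at least 99.4% of gene values were whole multiples of a common step (tolerance 0.0051), which gave depth and background, and no count model was run because the control rows were not scaled alike. Genes with a mean of at least 20 were tested (761) as log2(value + 1) with limma 3.58.1 in R 4.3.3 (lmFit, eBayes with an intensity trend), early CCH against late CCH as baseline, with BY and BH adjustment over all tested genes. Fold changes are on the log2(value + 1) scale, which understates low genes. The method was tested on simulated data. Each sample is 1 tumour of 1 dog, and replicate numbers do not pair samples. All members were reported, with every sample's value for those past BY and 2-fold. Members, lists and pairs were chosen with earlier results of these data known. Alternatives were other filters, pseudocounts, scalings and variance settings, DV200 or the replicate number in the model, a common background floor and leaving out each sample. Some results are not reported here.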

Additional observations from a re-analysis of the deposited data

Results flagged for a closer look

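Dixon's test was run on normalized counts, not on their logarithms. By it, the highest or lowest sample stood apart from the rest of its stage in 9 of the 82 groups checked (11%). The groups were the 41 tested members in 2 stages. The test's chance rate of about 5% assumes normally distributed values and independent groups. Counts can be skewed and genes of the same tumour can move together, so the 11% is not read as an excess over chance. In early 2, CXCL13 was 2853 normalized counts (47.6 to 402 in the other early tumours), CXCL8 was 1937 (55.1 to 158) and CCR3 was 181 (12.7 to 53.1). CX3CL1 was 67.9 in early 3 (27.1 to 37.9). CXCR5 was 353 in late 3 (74.5 to 129 in the other late tumours). In late 5, CCL4 was 2364 (1446 to 1643), while CXCR2 was low at 21.6 (35.3 to 39.8). CCL13 was 263 in late 2 (171 to 198), and CX3CR1 was 46.5 in that tumour (16.2 to 24.8).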

How the results depend on the processing

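Of 807 fold changes of the 41 tested members recomputed under other settings, 787 kept their direction, and the 20 that turned were in CCL13, CCL17, CCL20, CCL23, CCL25, CCL28, CCR3, CCR9 and CXCR5, none of which passed BH. CCL13 turned to 0.14 and CXCR5 to 0.027 with geometric mean scaling, and to 0.37 and 0.19 with quantile normalization. With DV200 as a covariate CXCR5 turned to 0.072, CCL17 to 0.11, CCR9 to 0.0031, CCL23 to -0.15, CCL25 to -0.27 and CCR3 to -0.060. CCL23 also turned to -0.18 with array weights, CCR9 to 0.15 there and to 0.24 with geometric mean scaling, and CCL28 to -0.062 with the common floor, where CCL27 and CCR9 had no value above it. With 1 sample left out, CCL23 ranged from -0.24 (without early 2) to 0.70 (-0.11 without early 1), CXCR5 from -0.53 to 0.029 (without late 3), CCR9 from -0.31 to 0.37 (without early 1) and CCL20 from -0.10 (without early 3; -0.041 without early 2) to 0.40. Members past the stricter threshold fell from 3 to 0 with DV200 and to 0 with the replicate block, although 10 and 21 members had an unadjusted p under 0.05 there; with 1 sample left out they ranged from 2 to 4. Members past BH fell from 17 to 1 with DV200 and 10 with quantile normalization, and ranged from 10 (without late 3 or late 4; 11 without early 5) to 18 with 1 sample left out. The causes were not tested. The replicate block kept 15 members past BH, but same-numbered samples correlated at only -0.20 to 0.16, so the numbers pair nothing. Over the panel, genes past the stricter threshold went from 85 to 0 with DV200 and 1 with the replicate block, and genes past BH from 272 to 45 and 228. Leaving out 1 sample moved the 85 to between 39 (without late 1) and 98 (without early 3), with 41 without late 4, 47 without early 5, 48 without late 2 and 52 without late 5. Low counts limit members near background, such as CCR4, CX3CR1 and XCR1, and 5 tumours a stage limit those with wide spread, such as CXCL13.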
